A study of Mus musculus with 6 samples.

Results

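The heterotrimeric G protein genes and the genes of the regulators of G protein signaling (RGS) were examined in the cerebellum of mice that switch on an activating STING allele in Purkinje cells. The members are the 53 of 53746 genes in the count table whose symbol is Rgs, Gnb or Gng followed by a number, or Gna followed by letters or digits. They comprise 21 RGS genes, 16 alpha, 5 beta and 10 gamma subunit genes, and 1 antisense RNA (*Gnasas1*) that is kept apart from the subunits. Of the 53 members, 38 had enough counts to be tested (15 RGS, 11 alpha, 4 beta and 8 gamma), and the other 15 are described by their counts alone.

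Whole cerebella were taken at 2 months of age of 6 mice. The genotype was N153S LSL/LSL Pcp2-cre in 3 of them (Pcp2-cre) and N153S LSL/LSL in the other 3 (control). All 6 mice carry the N153S knockin of *Sting1* behind a LoxP-Stop-LoxP cassette on both alleles. Only the Pcp2-cre mice carry Cre, which is driven by the promoter of *Pcp2*, a gene of Purkinje cells. In both genotypes mouse 3 is labelled female and the others male. Counts were compared with edgeR's quasi-likelihood test. A gene counts here as called lower or higher where its adjusted p (Benjamini-Hochberg) is 0.05 or less and its log2 fold change is 0.5 or more in size. CPM denotes counts scaled to library size and compares 1 gene between mice, while FPKM also divides by transcript length and is used to compare genes with each other.

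A G protein couples a receptor in the membrane to enzymes and channels inside the cell. The alpha subunit exchanges GDP for GTP when the receptor is activated, and it then parts from the beta-gamma dimer, so that both can act on effectors until the alpha subunit hydrolyses its GTP. RGS proteins speed up that hydrolysis and shorten the signal. Purkinje cells, the output neurons of the cerebellar cortex, use the Gq pathway to raise calcium inside the cell and the Gi/o pathway for inhibition through GABA-B receptors, and *Rgs8* is known as an abundant RGS transcript of these cells.

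The libraries held 6733178 to 10178218 counts, and 16961 genes were tested. *Sting1* stood at 23.2, 27.2 and 26.2 CPM in the controls, always listed here as mice 1, 2 and 3, and at 44.4, 34.2 and 35.5 CPM in the Pcp2-cre mice. It was higher in Pcp2-cre mice by 0.57 on the log2 scale (SE 0.0969, edgeR adjusted p = 3.59e-04), which followed the genotype labels. In public single-cell data cited by the study, *Sting1* RNA was seen in microglia and was low to undetectable in Purkinje cells. The study regards its own protein staining as the more reliable source, and there Purkinje cells held STING protein. In younger Pcp2-cre mice it reports more STING protein in Purkinje cells and no such rise in microglia. Microglia markers also rose in these mice, as given below, and their part in the higher level of *Sting1* was not tested. The marker lists moved with genotype as well. Of 10 Purkinje cell markers 8 were called lower and all 10 passed the adjusted p. Their median log2 fold change was -0.79, and their summed level was 6424 to 6990 CPM in controls against 3476 to 3856 CPM in Pcp2-cre mice. Of 12 microglia markers 10 were called higher, with a median of 1.69 and a summed level of 142 to 145 against 393 to 447 CPM. No Purkinje cell or microglia marker was at 0 in any mouse. In the other lists, 5 of 7 tested choroid plexus and 1 of 4 unipolar brush cell markers were called lower. Called higher were 2 of 10 Bergmann glia and astrocyte and 1 of 4 oligodendrocyte precursor markers. None of the granule cell, interneuron, oligodendrocyte, endothelial or pericyte markers was called. The Bergmann glia and astrocyte list moved both ways, with 4 genes higher and 2 lower at the adjusted p. The lower ones were *Gdf10* (log2 fold change -0.25) and *Slc1a3* (-0.22). The summed choroid plexus markers ran from 40.6 to 1276 CPM among the controls alone, so a covariate for them was tried. Only controls 1 and 2 were high, at 830 and 1276 CPM. Control 3 lay within the range of the Pcp2-cre mice, 31.7 to 97.4 CPM. The lower choroid plexus markers thus rest on these high controls, and the covariate is partly tied to genotype.

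The gamma subunits are small, and their sequences show what the family has in common although its members moved in different directions. Each protein ends in a CAAX box, a cysteine and 3 further residues to which a lipid is attached, and the last residue selects the lipid. The last 30 coding bases before the stop codon are given here for the 4 gamma genes that changed and for *Gng11*, with the 4 codons of the CAAX box in capitals (Gencode M39 transcripts on GRCm39, 5′ to 3′ on the coding strand).
Gng13: tgggtagagaaggccaagTGCACCATCCTA
Gng4: cgggagaagaagttcttcTGCACCATCCTC
Gng7: ttcaaagacaaaaagcctTGCATAATTCTC
Gng12: ttcaaggataagaagaccTGCATCATCTTA
Gng11: ttcaaagaaaagggcagcTGTGTCATTTCA
All 10 gamma members had a cysteine codon at the fourth position from the end, TGC or TGT. In 9 of them the last codon was one for leucine, the residue that directs a geranylgeranyl group, and *Gng11* was the exception with a serine codon, TCA. Coding lengths ran from 67 codons in *Gng13* to 75 codons in *Gng3* and *Gng4*. *Gng13*, the shortest, was the gamma gene with lower levels in Pcp2-cre mice, and it shares a leucine ending with the 3 that were higher.

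Among the 38 tested members, 1 was called lower (*Rgs8*) and 1 was called higher (*Gng4*). These counts are 2.63% of the members in each direction, against 1.79% of all genes tested that were called lower and 1.37% that were called higher. Without the fold threshold, 5 members were lower (*Rgs8*, *Gng13*, *Gnal*, *Gnaq* and *Gnao1*) and 6 were higher (*Gng4*, *Gng7*, *Rgs2*, *Gng12*, *Gnb2* and *Gna12*), which is 13.2% and 15.8% of the members against 4.75% and 2.99% of all genes. The median log2 fold change was 0.04 over the members and 0.00 over all genes tested. By group, it was 0.14 for RGS, -0.06 for alpha, 0.02 for beta and 0.11 for gamma genes. The groups did not overlap, with every Pcp2-cre mouse below every control, in 6 members (15.8%), and above it in 10 (26.3%), against 11.4% and 10.8% of all genes. The other 27 members had an adjusted p over 0.05 and log2 fold changes between -0.19 and 0.41.

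**Figure D1:**
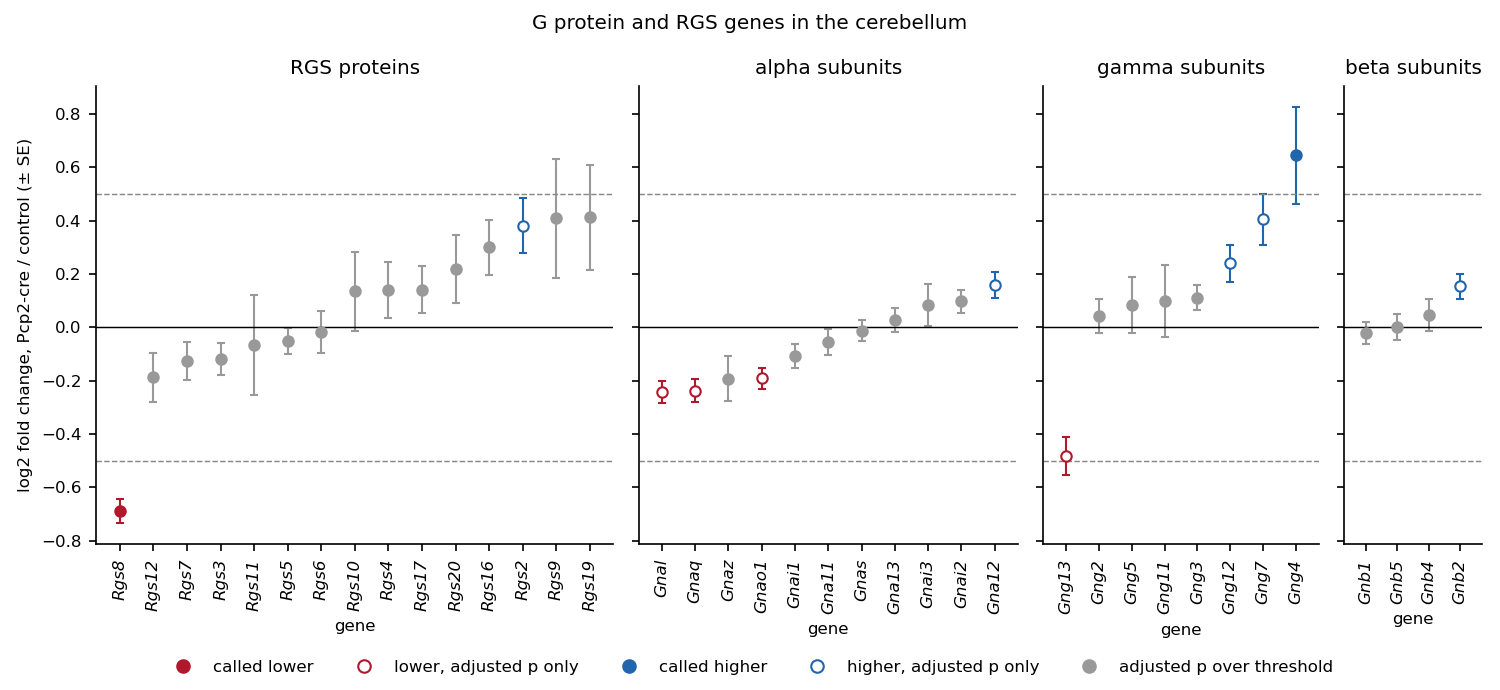
Log2 fold change of each of the 38 tested members, Pcp2-cre over control, with its standard error, by group. The x axis lists genes in the order of their change, dashed lines mark a log2 fold change of 0.5 in size, filled colored points are called genes and open ones pass the adjusted p alone. Rgs8 (-0.69) stands below the other 14 RGS genes, and Gng13 (-0.48) is the only 1 of 8 gamma genes below 0.

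*Rgs8* (ENSMUSG00000042671), which acts on Gi/o and Gq alpha subunits, was the RGS gene with by far the most RNA in this tissue and the one that fell most. It had 11212, 9252 and 12435 counts in the controls and 6702, 6796 and 5539 in the Pcp2-cre mice. Scaled to library size these were 1399, 1378 and 1232 CPM against 882.7, 784.4 and 819.5 CPM. The lowest control, mouse 3, was still well above the highest Pcp2-cre mouse, mouse 1, and the groups did not overlap. Means were 1336 ± 90.8 CPM for control and 829 ± 49.8 CPM for Pcp2-cre (SD, n = 3 each). The log2 fold change was -0.69 (SE 0.0468, edgeR adjusted p = 1.35e-09), or 38.0% less RNA. It stayed between -0.75 and -0.65 with any mouse left out. In whole tissue, fewer cells of a type and less RNA per cell cannot be told apart.

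The fall of *Rgs8* was set beside that of the Purkinje cell markers in the same mice. The mean log2 level of the 10 markers was lower than the control mean by 0.64 to 0.82 in the 3 Pcp2-cre mice. The log2 level of *Rgs8* minus that of the list differed from its control mean by 0.05, 0.06 and 0.08 in Pcp2-cre mice 1, 2 and 3, within the control SD of 0.09. The groups overlapped (mean difference 0.06, two-sided exact permutation test, p = 0.4, where 3 against 3 mice cannot go below 0.1). Relative to the Purkinje cell markers *Rgs8* was thus not distinguishable between genotypes at this n.

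*Rgs8* occupies bases 153528714 to 153576069 of chromosome 1 (GRCm39, forward strand), and 70 of its 11126 exonic bases overlap a lncRNA gene on the other strand. The next RGS gene, *Rgs16*, lies 40.0 kb away. *Rgs16* was at 13.8, 14.4 and 15.9 CPM in control and at 18.6, 19.0 and 16.9 CPM in Pcp2-cre mice (log2 fold change 0.30, SE 0.104, edgeR adjusted p = 0.0902). The neighbors therefore had changes of opposite sign, of which only that of *Rgs8* passed the test. The log2 difference between them fell by 0.98 in Pcp2-cre mice (exact permutation test, two-sided, p = 0.1, which is the lowest value that 3 against 3 mice allow). Each gene alone already separated the groups, in opposite directions. The test on their difference could therefore not come out otherwise and adds nothing to the 2 single results.

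Because *Rgs8* was so abundant, its fall changed the composition of the whole RGS group. On the FPKM scale *Rgs8* was at 204.7, 195.4 and 173.7 in control and at 121.3, 115.7 and 110.7 in Pcp2-cre mice. *Rgs7* and *Rgs5* came next in order, with means over all 6 mice of 20.1 and 19.9 FPKM whose ranges overlapped, against 153.6 FPKM for *Rgs8*, whose range met that of no other RGS gene. The share of *Rgs8* in the summed FPKM of the 21 RGS genes was 64.3 ± 1.30% in control and 51.4 ± 1.39% in Pcp2-cre mice (SD, n = 3 each). The summed FPKM of the 20 other genes was 106.1 ± 3.59 and 109.6 ± 6.87, a difference smaller than the spread between mice. Thus the lower RGS total of Pcp2-cre mice, 225.5 ± 10.5 against 297.3 ± 19.2 FPKM, lay in *Rgs8*.

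The remaining tested RGS genes had log2 fold changes from -0.19 (*Rgs12*, SE 0.0928) to 0.41 (*Rgs19*, SE 0.195). Within the R4 subfamily, small proteins that consist of little beyond the RGS domain, *Rgs2* was the other member that passed the adjusted p. *Rgs2*, which prefers Gq alpha subunits, was at 14.2, 14.6 and 14.6 CPM in control and at 20.5, 18.7 and 17.2 CPM in Pcp2-cre mice. Every Pcp2-cre mouse was above every control, and the log2 fold change was 0.38 (SE 0.103, edgeR adjusted p = 0.0231). That p rose above 0.05 when any mouse except Pcp2-cre 3 was left out, to at most 0.128, and it was 0.306 in DESeq2. *Rgs3* (-0.12), *Rgs4* (0.14) and *Rgs5* (-0.05) had adjusted p-values from 0.310 to 0.677, and *Rgs5* is a gene of pericytes, none of whose 8 markers was called.

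The R7 subfamily, *Rgs6*, *Rgs7*, *Rgs9* and *Rgs11*, forms stable complexes with the beta subunit *Gnb5*. No one of the 4 passed the test, with log2 fold changes of -0.02, -0.13, 0.41 and -0.07 in that order, and *Gnb5* had a log2 fold change of 0.00 (SE 0.0495). *Rgs9*, the highest of these values, rested on at most 54 counts per mouse and had an SE of 0.224. *Rgs7bp*, which anchors R7 complexes in the membrane, fell by 0.24 on the log2 scale (edgeR adjusted p = 0.00174). The R12 genes *Rgs10* and *Rgs12* (0.14 and -0.19) and the RZ genes *Rgs17*, *Rgs19* and *Rgs20* (0.14, 0.41 and 0.22) did not pass the test. Levels of the 3 Pcp2-cre mice lay below all controls for *Rgs12* and above all controls for *Rgs20*.

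*Gng13*, a gamma subunit known from taste cells and from retinal ON bipolar cells, was the most abundant gamma gene and the only one whose level fell. *Gng13* (ENSMUSG00000025739) had 455, 406 and 615 counts in control and 340, 329 and 306 counts in Pcp2-cre mice 1, 2 and 3, which gave 56.8, 60.5 and 60.9 against 44.8, 38.0 and 45.3 CPM. The groups did not overlap. The log2 fold change was -0.48 (SE 0.0711, edgeR adjusted p = 7.11e-05), just short of the fold threshold, so it was not called. With control 1, Pcp2-cre 1 or Pcp2-cre 3 left out it was -0.52, -0.53 and -0.53 and was called lower, and it lay between -0.53 and -0.40 over all 6 such fits. The edgeR adjusted p was at most 0.00238 in these 6 fits. It did not hold in every alternative, since outside these fits the adjusted p of *Gng13* rose above 0.05.

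*Gng13* fell less than the mean of the Purkinje cell markers in the same mice, while 2 of the 10 markers, *Pvalb* (-0.22) and *Slc1a6* (-0.47), had smaller falls than *Gng13*. Its log2 level minus that of the list was higher than the control mean by 0.24, 0.19 and 0.40 in Pcp2-cre mice 1, 2 and 3 (control SD 0.05), with no overlap between the groups (mean difference 0.27, exact permutation test, two-sided, p = 0.1, again the lowest possible). The same difference taken between *Rgs8* and *Gng13* was -0.21, and there the groups overlapped (exact permutation p = 0.2).

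The value of *Gng13* has to be read with its position. The gene spans 25936145 to 25938380 on the forward strand of chromosome 17 (GRCm39), and 448 of its 1023 exonic bases overlap exons of *Chtf18* on the opposite strand. *Chtf18*, a subunit of a clamp loader used in DNA replication, had 51.0, 55.4 and 52.5 CPM in control and 44.0, 33.7 and 39.2 CPM in Pcp2-cre mice, a log2 fold change of -0.45 (SE 0.0812, edgeR adjusted p = 7.97e-04). Both genes were lower together, the counting method is not stated to use strand, and without it reads in the shared stretch cannot be assigned to either gene.

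The gamma genes as a group shifted in composition. On the FPKM scale *Gng13* was at 90.4, 89.95 and 92.2 in control and at 73.1, 53.2 and 55.2 in Pcp2-cre mice. Its share of the summed FPKM of the 10 gamma genes was 45.03 ± 0.92% in control and 32.9 ± 3.98% in Pcp2-cre mice (SD, n = 3 each). *Gng3*, a neuronal gamma subunit and the second in order at 44.4 FPKM over all mice, held 20.97 ± 0.69% and 25.4 ± 1.6%, while its own log2 fold change was 0.11 (edgeR adjusted p = 0.201). *Gng5* followed at 17.8 FPKM with a log2 fold change of 0.08, although 4190 of its 4895 exonic bases overlap *Rpf1* on the other strand. The gamma genes other than *Gng13* summed to 111.0 ± 4.27 FPKM in controls against 122.6 ± 0.62 FPKM in Pcp2-cre mice.

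**Figure D2:**
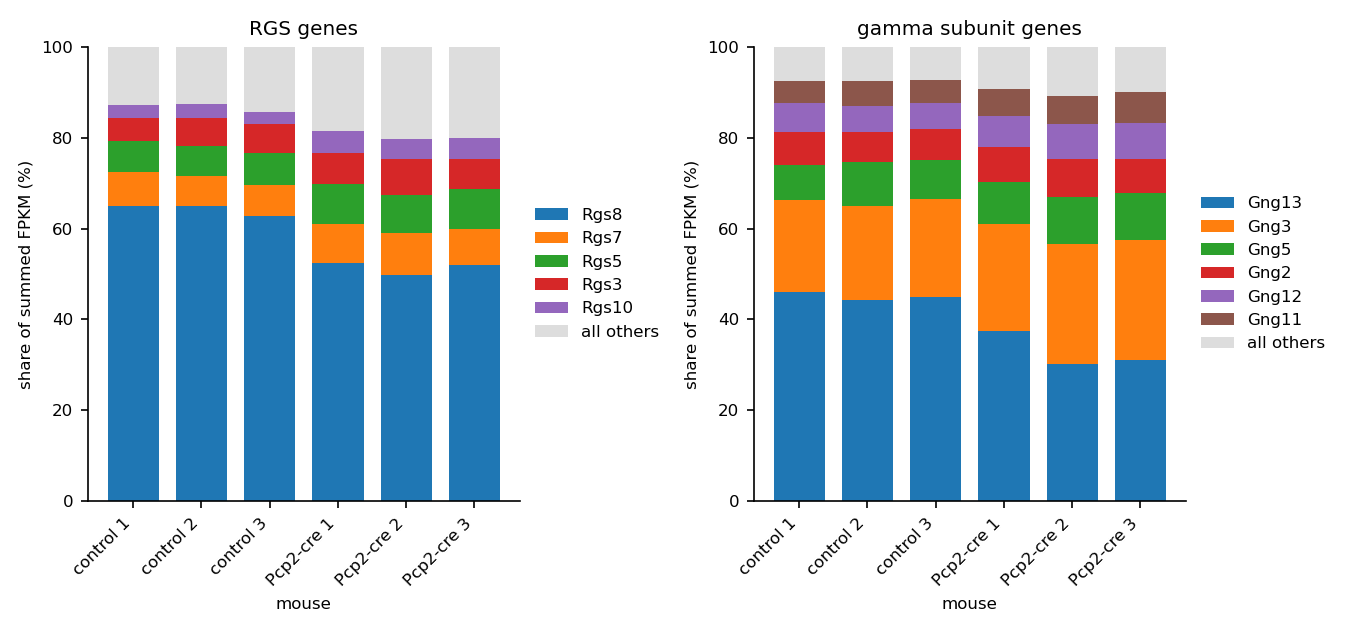
Share of each gene in the summed FPKM of the 21 RGS genes (left) and the 10 gamma subunit genes (right) in each of the 6 mice, in percent, with the less abundant genes pooled in grey. Rgs8 takes 64.3% of the RGS total in control and 51.4% in Pcp2-cre mice on average, and Gng13 takes 45.03% and 32.9% of the gamma total.

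The 7 other tested gamma genes had log2 fold changes above 0, and 3 of them passed the adjusted p, while *Gng2* and *Gng11* came out below 0 with the choroid plexus covariate (-0.015 and -0.12) and *Gng2* also without control 2 or Pcp2-cre 1. *Gng4*, the one member called higher, was at 5.86, 4.62 and 5.65 CPM in control and at 6.59, 10.16 and 8.58 CPM in Pcp2-cre mice. It rested on 31 to 88 counts per mouse, and Pcp2-cre 1 lay close to the controls without overlapping them. The log2 fold change was 0.64 (SE 0.182, edgeR adjusted p = 0.0312). The call was lost without control 1 (adjusted p = 0.0611), control 2 (0.108), Pcp2-cre 2 (0.260) or Pcp2-cre 3 (0.103), with the choroid plexus covariate (0.163) and in DESeq2 (0.236), so it depended on each of 4 mice and on the test.

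*Gng7*, the partner of the Golf alpha subunit in the striatum, was at 20.3, 17.6 and 17.4 CPM in control and at 22.4, 25.9 and 24.9 CPM in Pcp2-cre mice. Its log2 fold change was 0.40 (SE 0.0966, edgeR adjusted p = 0.00929), which became 0.0846 without Pcp2-cre 2 and 0.13 in DESeq2. A processed pseudogene on the same strand overlaps 257 of its 8434 exonic bases. *Gng12*, a widely expressed gamma subunit, was at 47.2, 49.9 and 44.2 against 58.1, 51.5 and 56.8 CPM, with a log2 fold change of 0.24 (SE 0.0684, edgeR adjusted p = 0.0329). That p was 0.0898 without control 1, 0.14 without control 3, 0.18 without Pcp2-cre 1, 0.126 without Pcp2-cre 3 and 0.261 in DESeq2. In none of the 3 did the groups overlap. Oligodendrocyte markers moved the same way, with 6 of 8 past the adjusted p and a summed level of 3693 to 3925 CPM in controls against 4332 to 4553 CPM in Pcp2-cre mice, as did the microglia markers given above, and their part in the higher levels of gamma genes was not tested.

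**Figure D3:**
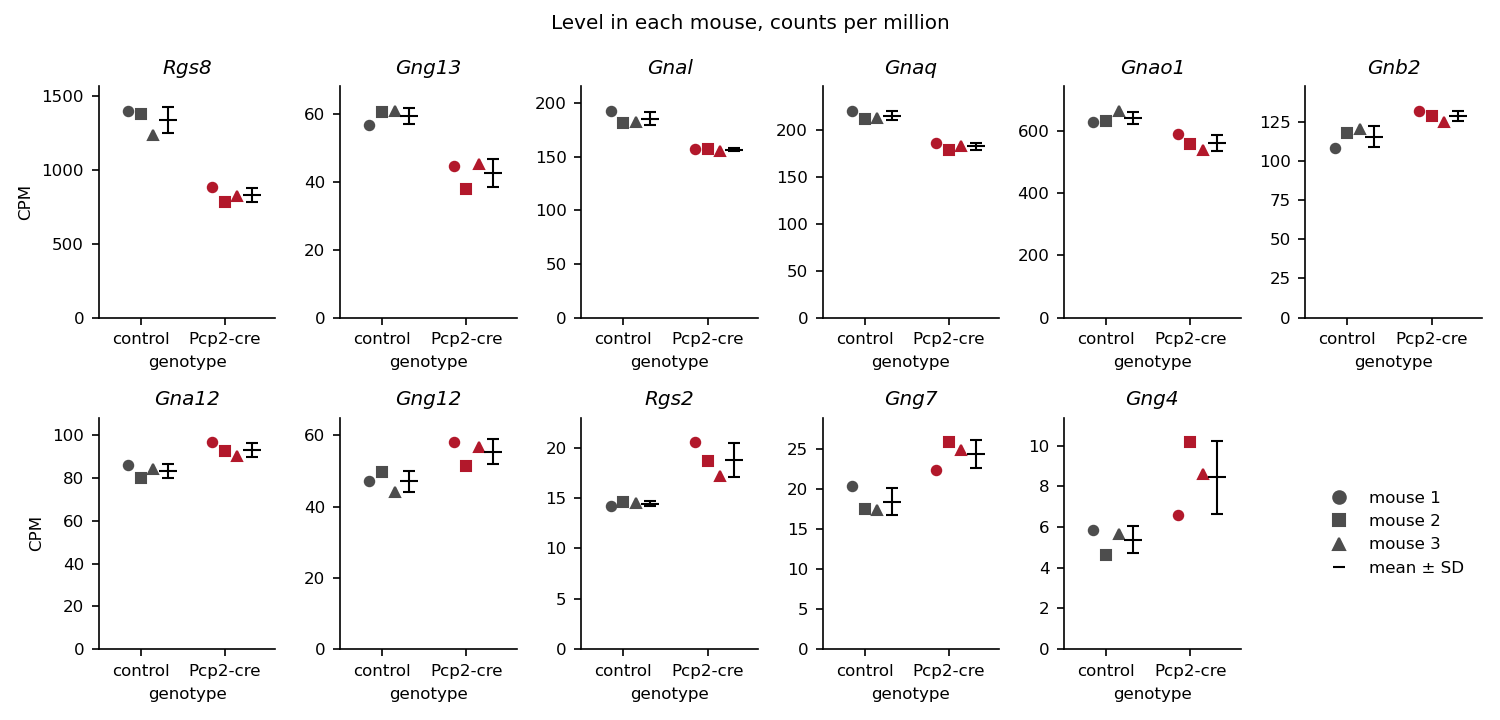
Level of the 11 members with an adjusted p of at most 0.05 in each mouse, in CPM on axes that start at 0, with the mean ± SD of 3 mice beside each genotype. In all 11 panels the 3 Pcp2-cre mice lie to one side of the 3 controls, from Rgs8 at 1336 against 829 CPM on average to Gng4 at 5.38 against 8.44 CPM.

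Among alpha subunits 3 genes fell by small amounts, 1 each of the 2 tested Gs, 5 tested Gi/o and 2 tested Gq genes. *Gnaq*, a Gq subunit that activates phospholipase C beta, was at 220.1, 211.3 and 212.7 CPM in control and at 186.2, 178.2 and 182.3 CPM in Pcp2-cre mice. Each Pcp2-cre mouse was below each control, and the log2 fold change was -0.24 (SE 0.0415, edgeR adjusted p = 5.34e-04), or 15.1% less RNA. The other tested Gq subunit, *Gna11*, had a log2 fold change of -0.06 (SE 0.0492, adjusted p = 0.635).

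*Gnao1*, the Go subunit of neurons, was at 627.1, 630.6 and 663.6 CPM in control and at 588.1, 556.1 and 538.8 CPM in Pcp2-cre mice. Its log2 fold change was -0.19 (SE 0.0402, edgeR adjusted p = 0.00313). The Gi subunits *Gnai1*, *Gnai2* and *Gnai3* had changes of -0.11, 0.10 and 0.08 with adjusted p-values of 0.203, 0.217 and 0.657, and *Gnaz*, the pertussis toxin-insensitive Gi relative, changed by -0.19 (SE 0.0851, adjusted p = 0.224).

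*Gnal* encodes Golf, the Gs relative of olfactory and striatal neurons that is also made in Purkinje cells. It was at 192.7, 181.7 and 181.9 CPM in control and at 157.5, 157.0 and 155.3 CPM in Pcp2-cre mice, with a log2 fold change of -0.24 (SE 0.0417, edgeR adjusted p = 4.21e-04). *Mppe1*, which overlaps 1018 of its 11177 exonic bases on the other strand, had a log2 fold change of -0.08 (adjusted p = 0.602). *Gnas*, the common Gs subunit and the most abundant alpha gene at 377.1 FPKM, did not pass the test at -0.01 (SE 0.0388). On the FPKM scale *Gnas* was followed by *Gnao1* at 164.5 and *Gnai2* at 62.7, and the ranges of these 3 over the 6 mice did not meet.

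The 3 lower alpha genes kept an adjusted p of at most 0.05 in DESeq2 and with any 1 mouse left out, while on the deposited FPKM values (limma, pseudocount of 1) it was 0.0895 for *Gnal* and 0.0857 for *Gnao1* with a filter, and 0.235 for *Gnal*, 0.261 for *Gnao1* and 0.0753 for *Gnaq* without one. All 3 fell less than the mean of the Purkinje cell markers, although the marker with the smallest fall, *Pvalb* at -0.22, fell about as much as *Gnaq* and *Gnal*. Their log2 level minus that of the list was higher in Pcp2-cre mice by 0.51 for *Gnaq*, 0.51 for *Gnal* and 0.56 for *Gnao1*, with the groups apart in each case (exact permutation test, two-sided, p = 0.1 each, also the lowest possible).

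**Figure D4:**
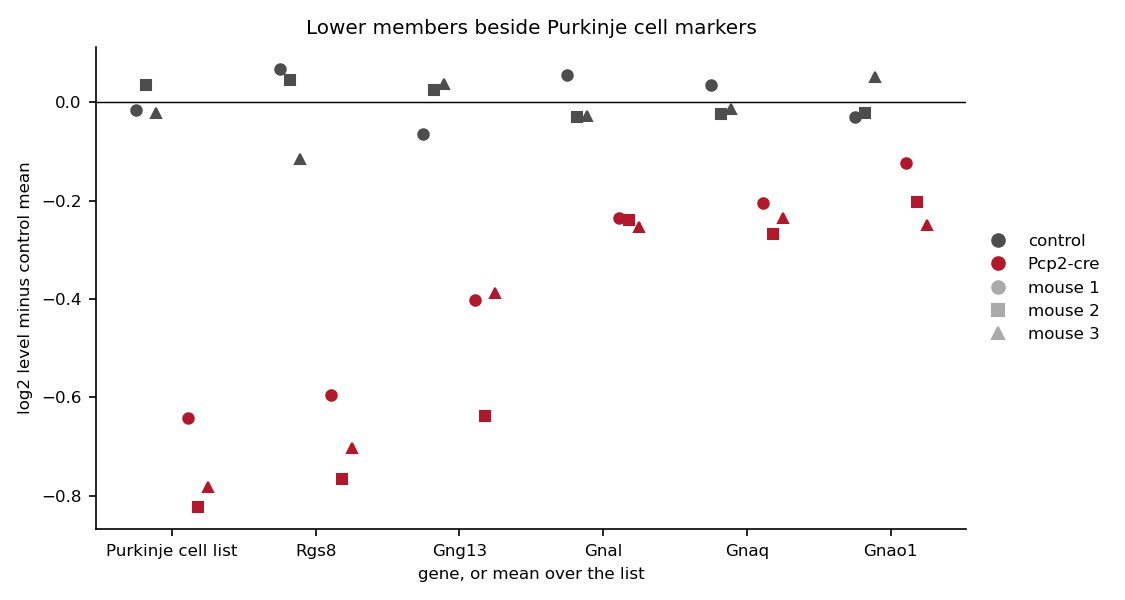
Log2 level of each mouse minus the mean of the 3 controls, for the mean of 10 Purkinje cell markers and for the 5 members that were lower at an adjusted p of at most 0.05. Grey points are control and red points Pcp2-cre mice, and the marker shape gives the mouse number. The Pcp2-cre points of Rgs8 lie at the level of the marker list, Gng13 lies between, and Gnal, Gnaq and Gnao1 lie nearest to 0.

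Of the G12 family, *Gna12* moved the other way. It was at 86.1, 79.8 and 84.2 CPM in control and at 96.7, 92.7 and 90.2 CPM in Pcp2-cre mice, a log2 fold change of 0.16 (SE 0.0481, edgeR adjusted p = 0.0467). That p was above 0.05 with each mouse left out in turn, between 0.0539 and 0.178, and it was 0.444 in DESeq2. *Amz1* overlaps 827 of the 4455 exonic bases of *Gna12* on the other strand. It had a log2 fold change of 0.23 (SE 0.0901, edgeR adjusted p = 0.155), of the same sign as that of *Gna12*. *Gna13* had a log2 fold change of 0.03 (SE 0.0465).

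The 4 tested beta subunit genes had log2 fold changes between -0.02 and 0.15. *Gnb1*, the most abundant at 112.7 FPKM, had a log2 fold change of -0.02 (SE 0.0413), and *Gnb4* one of 0.05 (SE 0.0593), with 5448 of its 16025 exonic bases shared with *Mfn1*. *Gnb2*, second at 68.1 FPKM with a range that met that of *Gnb5* at 58.2 FPKM, was at 108.5, 117.9 and 120.9 CPM in control and at 132.2, 129.0 and 125.3 CPM in Pcp2-cre mice. Its log2 fold change of 0.15 (SE 0.0453, edgeR adjusted p = 0.0400) was the 1 change among beta genes. That adjusted p was at most 0.05 only without control 3 among the fits with a mouse left out, was up to 0.231 in the others, and was 0.332 in DESeq2. *Gigyf1*, which overlaps 656 of the 5268 exonic bases of *Gnb2* on the other strand, had a log2 fold change of 0.03 (edgeR adjusted p = 0.820). *Gnb1*, *Gnb2* and *Gnb5* together made up nearly all of the beta FPKM, with shares of 46.1, 26.9 and 23.6% in control and 44.9, 28.0 and 23.4% in Pcp2-cre mice.

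The 15 untested members were at or near the limit of detection. *Gnat3*, *Rgs13* and *Rgs21* had 0 counts in all 6 mice, where a floor of 3 counts allows up to 0.297 to 0.447 CPM per library (counting error only). *Gnat1*, *Gna14*, *Rgs18* and *Gnat2* never exceeded 3 counts. The transducin alpha genes *Gnat1* and *Gnat2* belong to photoreceptors and *Gnat3* to taste cells. *Rgs1*, an RGS gene of lymphocytes and microglia, had 0, 0 and 1 counts in control and 2, 4 and 3 counts in Pcp2-cre mice, which are too few for a test. *Gna15*, the Gq subunit of blood cells, had 2, 3 and 7 against 5, 11 and 7 counts. *Gnb3*, *Rgs14*, *Rgs22*, *Gng8* and the antisense RNA *Gnasas1* had at most 10 counts in any mouse. *Gng10* had 1 to 7 counts per mouse, yet the separate FPKM table listed it at 7.60 to 9.24 FPKM, so the 2 tables do not measure this gene alike and its level is uncertain.

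The receptors and effectors of the pathway were examined in 9 lists with 85 genes, of which 64 were tested. The lists were chosen with earlier results of these data known, and they include the Purkinje cell gene *Pcp2*. Their shares are therefore a description and not an independent test. In all, 5 were called lower and 13 were lower at an adjusted p of at most 0.05, which is 7.81% and 20.3% of those tested against 1.79% and 4.75% of all genes. None was called higher, none passed the adjusted p in that direction, and the median log2 fold change over the 64 was 0.02. At an unadjusted p under 0.05, 16 were lower and 9 higher. The Purkinje cell markers fell in the same mice, and their part in the lower receptor and effector levels was not tested.

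Among the receptors, *Gabbr2* and *Gabbr1*, the subunits of the GABA-B receptor that couples to Gi/o, fell together. *Gabbr2* was at 306.5, 300.9 and 303.5 CPM in control and at 204.8, 193.9 and 203.4 CPM in Pcp2-cre mice (log2 fold change -0.60, SE 0.0411, edgeR adjusted p = 1.55e-09) and was called lower. *Gabbr1* was just short of the fold threshold at -0.48 (adjusted p = 5.82e-09). *Grm7*, a presynaptic Gi/o-coupled glutamate receptor, was called lower at -0.75 (SE 0.0978, adjusted p = 1.42e-05). *Kctd12*, an auxiliary subunit of GABA-B receptors, was the 1 of 6 tested genes called lower in the list of GIRK channels and KCTD proteins, at -0.53 (adjusted p = 1.19e-05), while the GIRK subunits *Kcnj3* and *Kcnj9* were at -0.04 and -0.05.

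Downstream of Gq, 2 of 4 phospholipase C beta genes were lower. The other 2, *Plcb1* at 0.19 (edgeR adjusted p = 0.101) and *Plcb2* at 1.04 (SE 0.394, adjusted p = 0.136), lay above 0 and did not pass. *Plcb2* rested on at most 18 counts per mouse, and its groups overlapped. *Plcb3* was at 91.3, 82.0 and 87.8 CPM in control and at 53.5, 57.3 and 48.8 CPM in Pcp2-cre mice and was called lower (log2 fold change -0.71, SE 0.0607, edgeR adjusted p = 4.02e-08). *Plcb4* fell by 0.24 on the log2 scale (adjusted p = 4.29e-04), the same size as *Gnaq*.

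Other regulators showed fewer changes. *Pcp2*, a GoLoco protein of Purkinje cells that binds Gi/o alpha subunits, fell by 0.40 on the log2 scale (edgeR adjusted p = 1.79e-05), and *Pdcl*, a chaperone of beta-gamma assembly, fell by 0.28 (adjusted p = 0.0210), and they were the 2 of 10 tested modulators to pass. No adenylyl cyclase (0 of 10 tested) and no receptor kinase or arrestin (0 of 7 tested) passed the adjusted p in edgeR, and at an unadjusted p under 0.05 there were 1 lower and 2 higher cyclases and 1 lower gene of the second list. The nearest to the threshold were *Adcy7*, at 0.38 (adjusted p = 0.0525), and *Arrb1*, at -0.11 (adjusted p = 0.111). *Gngt2*, a gamma subunit gene outside the symbol rule, had a log2 fold change of 0.86 at 1.0 to 2.2 CPM and did not pass (adjusted p = 0.128).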

How the data were processed

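Cerebellar poly A RNA from 6 mice was sequenced as paired reads. The authors aligned the reads to GRCm39 with STAR, per the labels and the study's methods, and deposited raw counts per gene (53746 genes) and, in a second table, FPKM values (55005 genes). The submitters' processing notes also name featureCounts and StringTie, and that they made the counts and the FPKM values, in that order, was inferred. Tool versions, the Gencode release and the use of strand are not given in the sources used here. Each library is 1 mouse, and none was pooled.

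From the deposited counts, fold changes were fitted with edgeR 4.0.16 in R 4.3.3 (filterByExpr, TMM, quasi-likelihood test, Benjamini-Hochberg over 16961 genes). The members were fitted with all genes, and the standard error is the log2 fold change over the root of F. FPKM served to compare genes and, with limma 3.58.1 on log2(FPKM + 1 or + 0.1), as an alternative. Single differences were tested with exact permutation tests (scipy 1.17.1). The tests were tried on simulated counts. Positions, exon overlaps and coding ends came from Gencode M39 on GRCm39. For each gamma gene the coding sequence that most complete protein-coding transcripts share was taken, and the longer one in a tie (*Gng11*).

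The text names every called member, members at an adjusted p of at most 0.05, the 3 most abundant genes of each group by FPKM, members at or under 3 counts, and in the pathway lists called genes and up to 3 by p. Other members and genes that overlap or adjoin them were added after their values were seen. The members and lists were chosen with earlier results of these data known. The marker lists hold 4 to 12 genes of 11 cell types. Some single genes of the pathway lists are not reported here.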

Additional observations from a re-analysis of the deposited data

How the results depend on the processing

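Across 38 members and 19 alternatives, 664 of 722 comparisons kept direction and side of the threshold, 11 lost a call, 15 gained one and 32 changed sign. The alternatives that only moved the fold threshold reuse the main fit, so they could not change a direction. Members that were not called and lost their adjusted p, as *Gna12* did, are among those counted as kept. The 32 changes of sign were in 9 members close to 0, none of them with an adjusted p under 0.663. With a choroid plexus covariate the log2 fold change became -0.015 for *Gng2*, 0.043 for *Gnas*, -0.12 for *Gng11* and 0.10 for *Rgs11*. In limma on log2(FPKM + 1), log2(FPKM + 0.1) and log2(FPKM + 1) without a filter it was 0.11, 0.13 and 0.11 for *Rgs6*, 0.0167, 0.0169 and 0.0167 for *Gnb1* and -0.0164, -0.0176 and -0.0164 for *Gna13*. *Gnb5* came to -0.0061 in DESeq2, -0.00022 in the likelihood ratio test, -0.0012 with DESeq2 size factors, -0.0125 without a filter on counts, -0.0018 with sex as a covariate and -0.0066 with a replicate block. With a mouse left out the ranges were -0.0141 to 0.131 for *Gnai3*, -0.0368 to 0.0215 for *Gnas*, -0.0444 to 0.0098 for *Gnb1*, -0.0614 to 0.0378 for *Gnb5*, -0.0014 to 0.0978 for *Gng2*, -0.204 to 0.0316 for *Rgs11* and -0.0727 to 0.0351 for *Rgs6*. Members called lower numbered 5 without a fold threshold, 0 at a log2 threshold of 1, 2 with a choroid plexus covariate and 2 in limma on log2(FPKM + 1) or log2(FPKM + 0.1) after a filter, with *Gng13* as the second in the last 3. Members called higher numbered 6 without a fold threshold, 0 at a log2 threshold of 1, 0 in DESeq2 1.42.0, 0 with the choroid plexus covariate, and 0, 0 and 0 in the 3 limma fits. With a mouse left out, 1 to 2 members were called lower and 0 to 1 higher. Over all genes, 304 were called lower and 233 higher, against 224 and 146 in DESeq2, 191 and 162 in limma on log2(FPKM + 1), 116 and 105 without its filter, 285 and 160 where each mouse needed 10 counts, 805 and 507 without a fold threshold, and 94 and 142 at the stricter one. Same-numbered mice correlated at 0.03, 0.05 and 0.14 in their deviations, and differently numbered ones at -0.10 to 0.07. Mouse 3 is the only female of each genotype, so number and sex cannot be told apart there. These correlations cannot settle whether the numbers pair the mice. A fit with a replicate block called 1 member lower and 1 higher (319 and 229 of all genes). DESeq2 size factors, a likelihood ratio test, no filter and sex as a covariate each kept both calls. With 3 mice a group and 31 to 88 counts, *Gng4* is the least certain call. The cause of these shifts was not tested.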
